A study of Mus musculus with 16 samples.

Results

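Described here are 8 genes grouped under the red cell membrane, its skeleton and its surface, among them those for dematin, adducin and ankyrin. Xpo7, also in the group, encodes a nuclear export receptor. The genes are followed across nascent RNA, fetal liver RNA and the binding sites of the erythroid factor KLF1 and its Nan mutant in the mouse. The 8 genes, Epb4.9, Add2, Ank1, Ermap, Cd24a, Xpo7, Tspo2 and Slc2a4, were chosen by name, with earlier results of these data known. Each of their rows in the deposited expression tables and each peak that names one of them as nearest gene was taken. They are 8 of 2247 genes in the 2 expression tables, 5 with a row in the nascent RNA table, 4 with a row in the liver table and 1, Epb4.9, with a row in both. They are named by 4 of 2758 Nan-KLF1 peaks and by 13 of 5326 KLF1 peaks.

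The samples number 16. K1-NanER and K1-ER are lines made from K1, an erythroblast line that lacks KLF1; they carry Nan-KLF1 or KLF1 fused to the oestrogen receptor (ER), so that 4-hydroxytamoxifen switches the factor on. Newly made RNA was labelled with 4-thiouridine (4sU, 500 μM for 1 h) in 2 K1-NanER libraries from different clones (B and X), 2 K1-ER libraries from different clones (A and C) and 2 libraries of parental K1 cells, all given 200 nM 4-hydroxytamoxifen per the labels' protocol. Binding sites come from ChIP-seq, in which chromatin bound by the factor is precipitated and sequenced, after 3 h of 200 nM 4-hydroxytamoxifen; each factor has 1 library of 3 pooled replicates and 1 input library. Whole fetal livers of embryonic day 14.5, 3 Nan/+ and 3 wild type (+/+), gave polyadenylated RNA after globin RNA was removed. RNA levels are in FPKM as deposited by the authors (reads scaled to transcript length and library size), so genes can be compared per length. Each group has 1 value and no value per library, so no spread between libraries can stand beside it. A gene is called when the q value (p-value adjusted for the number of genes) of the authors' own comparison is at most 0.05. The number of reads is not given, so the depth is unknown.

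The red cell keeps its shape through a lattice of spectrin beneath the lipid bilayer. Ankyrin ties that lattice to the anion exchanger band 3, while junctions of short actin filaments, to which adducin and dematin bind, tie it to further membrane proteins. Loss of these links gives fragile, rounded red cells. KLF1 binds CACCC-type elements through zinc fingers and activates many erythroid genes, and the Nan mutation alters the finger that reads the middle triplet of the element. Among the 8 genes, Epb4.9 encodes dematin, Add2 beta-adducin and Ank1 erythrocyte ankyrin, all of the skeleton. Ermap (a blood group protein of the immunoglobulin superfamily) and Cd24a (a lipid-anchored surface antigen of immature blood cells) lie at the surface, and Slc2a4 is the insulin-responsive glucose transporter GLUT4. Tspo2 encodes a cholesterol-binding membrane protein of erythroid cells. Xpo7 encodes a nuclear export receptor, which is not a membrane skeleton or surface protein.

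The central motifs of the peaks of these genes, as the authors' peak lists give them, show which element lay under each summit; the capitals mark the middle triplet.
Epb4.9, promoter peak, Nan-KLF1: cccCTCcc
Epb4.9, promoter peak, KLF1: cccCTCcc
Epb4.9, intronic peak of higher enrichment, KLF1: cccCACcc
Epb4.9, intronic peak of lower enrichment, KLF1: ccaCACcc
Add2, promoter peak, KLF1: ccaCACcc
Ank1, intronic peak inside the locus, KLF1: cccCACcc
Ank1, intronic peak outside the locus, KLF1: ccaCACcc

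All 7 motifs fit the canonical form CCNCNCCC, with C as the first base of the middle triplet. Of all central motifs, 50.3% in the Nan-KLF1 list (947 of 1883) and 80.2% in the KLF1 list (3368 of 4200) did so. The motif ccaCACcc was the central motif of 555 KLF1 peaks, 13.2% of those with a motif. The other peaks of the 8 genes, 3 of 4 Nan-KLF1 peaks and 7 of 13 KLF1 peaks, had no central motif, against 31.7% of all Nan-KLF1 peaks and 21.1% of all KLF1 peaks.

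The first question put to the nascent RNA was which of the 8 genes were transcribed more or less once either factor was active. Epb4.9, Add2, Ermap and Cd24a rose in K1-NanER and in K1-ER against the same K1 libraries, while Ank1 fell in K1-NanER and was not called in K1-ER. Of the 8 genes, 4 rose and 1 fell in K1-NanER, where 47.4% of the genes in the table rose and 28.3% fell; 4 rose and 0 fell in K1-ER, where 37.9% rose and 11.5% fell. The table lists only genes called in at least 1 of its comparisons, so the 3 genes without a row have no value here. Over the 5 genes with a row the authors' deposited table gives median log2 fold changes of 1.43 (K1-NanER) and 2.01 (K1-ER), against 1.04 and 0.72 for all 1556 genes. These medians are a description only, since the genes were chosen with earlier results of these data known.

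Among the genes of the skeleton, Epb4.9 (chromosome 14, 71001991 to 71035855, build mm9) stood at 3.47 FPKM in K1-NanER, 8.54 in K1-ER and 0.1 in K1. The value of 0.1 FPKM is the lowest in this table, a floor shared by 101 genes in K1. Dematin RNA was thus listed above the floor only in the lines with a fused factor, and at a low level there: 10.7% of the listed genes were lower in K1-NanER and 27.1% in K1-ER. The authors' deposited table gives a q of 0.00213 for each line and log2 fold changes of 5.12 in K1-NanER and 6.42 in K1-ER, which the floor sets; on the log2(FPKM + 1) scale they were 2.02 and 3.12.

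Add2 (chromosome 6, 85978675 to 86074403) stood at 32.9 FPKM in K1-NanER, 64.3 in K1-ER and 12.2 in K1. Both lines lay above K1, with log2 fold changes of 1.43 in K1-NanER (q = 0.00381) and 2.40 in K1-ER (q = 0.00213) per the authors' deposited table. Ank1 (chromosome 8, 24085354 to 24260968) had the opposite order of K1 and the lines, at 16.5 FPKM in K1-NanER, 33.7 in K1-ER and 38.6 in K1. In the authors' deposited table Ank1 fell by 1.23 on the log2 scale in K1-NanER (q = 0.00381), whereas its log2 fold change of -0.20 in K1-ER did not pass (q = 0.836). Ank1 was the 1 gene of the 5 whose level was below that of K1 in both lines.

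At the surface, Ermap (chromosome 4, 118848062 to 118862616) stood at 46.4 FPKM in K1-NanER, 85.6 in K1-ER and 21.3 in K1. Its log2 fold changes were 1.12 in K1-NanER (q = 0.0127) and 2.01 in K1-ER (q = 0.00213) per the authors' deposited table. Cd24a (chromosome 10, 43298975 to 43304071) was the most abundant of the 5 in every group, at 261 FPKM in K1-NanER, 195 in K1-ER and 51.3 in K1. In K1-NanER it stood above 98.3% of the listed genes. It rose by 2.35 in K1-NanER and by 1.93 in K1-ER on the log2 scale, each with a q of 0.00213 in the authors' deposited table, and was the 1 gene of the 5 with its highest level in K1-NanER.

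**Figure D1:**
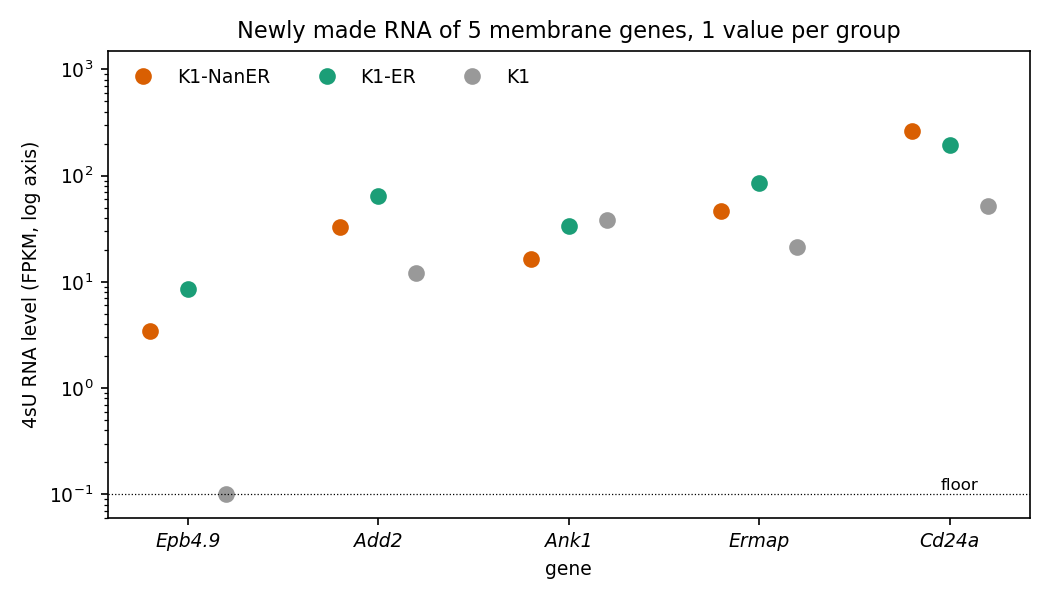
4sU RNA levels (FPKM, log axis, 1 value per group of 2 libraries) of the 5 genes with a row, for K1-NanER, K1-ER and K1 from left to right. Epb4.9 lies at the floor of 0.1 FPKM in K1, Ank1 is lowest in K1-NanER at 16.5 FPKM, and Cd24a is highest in K1-NanER at 261 FPKM.

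The levels of the lines can also be set against each other without K1. For 4 of the 5 genes the K1-NanER level was below the K1-ER level, with log2 differences (K1-NanER over K1-ER) of -1.30 for Epb4.9, -1.03 for Ank1, -0.97 for Add2 and -0.88 for Ermap, while that of Cd24a was 0.42. The median of all 1556 listed genes was -0.26, with 55.7% below 0, and the median of the 589 genes that rose in K1-ER was -0.70, with 77.6% below 0. The files hold no test between the lines, so none of these differences is shown to exceed the spread between clones. Esr1, whose ligand-binding domain is part of both fusions, stood at 70.3 FPKM in K1-NanER, 136 in K1-ER and 2.41 in K1, a log2 difference of -0.95 between the lines. The RNA of the fusion itself and the properties of the mutant factor cannot be told apart in these differences.

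A wider list of 52 genes grouped under the red cell membrane places the 8 genes beside their partners. It holds the 8 genes, Xpo7 included, and 44 others (spectrins, band 3, other skeleton proteins, blood group proteins, channels and carriers). Of the 52 genes 14 have a row in the nascent RNA table. In K1-NanER 5 rose, 2 fell and 7 did not pass, where 47.4% of all listed genes rose and 28.3% fell. In K1-ER 12 rose, none fell and 2 did not pass, where 37.9% of all listed genes rose and 11.5% fell. Their median log2 fold changes in the authors' deposited table were 0.41 (K1-NanER) and 1.70 (K1-ER), against the medians of 1.04 and 0.72 for the whole table. The list and the 8 genes were put together with earlier results of these data known, so these counts describe the table and support no direction.

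The 8 other genes of the list that rose in K1-ER included bridges of the skeleton and carriers. Slc4a1, band 3 itself, stood at 1.43 FPKM in K1-NanER, 6.79 in K1-ER and 2.00 in K1, and Gypc, a glycophorin that anchors the junctions of the skeleton, at 21.2, 42.2 and 12.5 FPKM in the same order. Both passed in K1-ER (q = 0.0158 and 0.00213) and not in K1-NanER (q = 0.726 and 0.250) in the authors' deposited table. Kcnn4, the calcium-gated potassium channel that controls red cell volume, stood at 15.2 FPKM in K1-NanER, 75.6 in K1-ER and 11.8 in K1. Its log2 fold changes were 0.37 in K1-NanER (q = 0.701) and 2.69 in K1-ER (q = 0.00213) per the authors' deposited table. The amino acid carrier Slc43a1, the blood group gene Rhd, the glucose transporter Slc2a1 and the membrane protein stomatin (Stom) also rose in K1-ER, with log2 fold changes of 1.64, 1.24, 1.13 and 0.98 (q of 0.00213, 0.0337, 0.0231 and 0.0404) in the authors' deposited table. None of these 4 passed in K1-NanER (q of 0.756, 0.994, 0.892 and 0.474). Bsg, the surface glycoprotein basigin, rose in both, by 1.00 in K1-NanER (q = 0.0344) and 1.46 in K1-ER (q = 0.00213) on the log2 scale, and Abcb6, a porphyrin transporter that carries a blood group antigen, fell by 1.15 in K1-NanER (q = 0.0147) in the authors' deposited table. The K1-NanER level was below the K1-ER level in 13 of the 14 genes, with log2 differences between -2.32 and -0.45 in those 13. The median was -0.99 over all 14. Below 0 were also 55.7% of all 1556 listed genes and 77.6% of the 589 that rose in K1-ER. For 7 of the 14 the row rests on the call in K1-ER alone, so the filter itself favours a lower K1-NanER level. A gene called in K1-ER and not in K1-NanER is not thereby shown to differ between the lines.

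**Figure D2:**
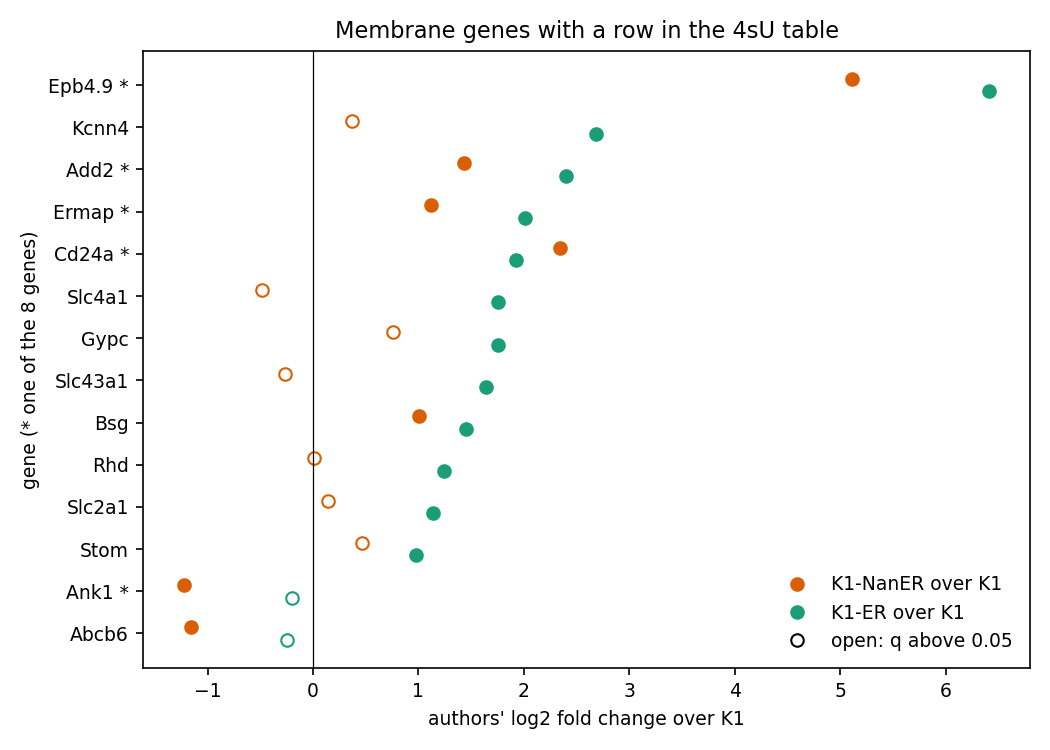
The authors' log2 fold change over K1 (horizontal axis) for the 14 membrane genes with a row in the nascent RNA table (vertical axis), in K1-NanER (orange, upper point of each pair) and K1-ER (green); open points have a q above 0.05 and asterisks mark the genes described in full. All 12 genes with a closed green point lie to the right of 0, 7 orange points are open, and the position of Epb4.9 is set by the floor in K1.

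The liver question was what 1 Nan allele does to the same genes in tissue. Epb4.9, Xpo7, Tspo2 and Slc2a4 fell in Nan/+ livers, and none of the 8 rose. The liver table is limited to called genes whose log2 fold change is 1 or more in either direction, of which 75.4% rose and 24.6% fell, so having a row already means having passed. The other 4 genes have no row and no value there.

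Epb4.9 stood at 7.98 FPKM in Nan/+ livers and 84.8 FPKM in wild-type livers, so that 9.41% of the wild-type level was left. With a log2 fold change of -3.41 (q = 0.00244) in the authors' deposited table it had the 18th steepest fall of 195. Xpo7 (chromosome 14, 71054053 to 71166435) stood at 9.57 FPKM in Nan/+ livers and 46.3 FPKM in wild-type livers. Its log2 fold change was -2.27 (q = 0.00244) in the authors' deposited table. Its locus begins 18.2 kb from the upper edge of that of Epb4.9, and both of these neighbouring genes fell.

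Tspo2 (chromosome 17, 48587760 to 48590826) stood at 19.9 FPKM in Nan/+ livers and 65.4 FPKM in wild-type livers, a log2 fold change of -1.72 (q = 0.00244) in the authors' deposited table. Slc2a4 (chromosome 11, 69755788 to 69761692) stood at 1.33 FPKM in Nan/+ livers and 7.28 FPKM in wild-type livers, a log2 fold change of -2.45 (q = 0.00244) in the authors' deposited table. It was the least abundant of the 4 in both groups. The median log2 fold change of the 4 was -2.36 in the authors' deposited table, against -1.32 for all 195 genes that fell. Because the genes were chosen with earlier results of these data known, this difference is a description only. Of the wider list, 5 genes have a row and all 5 fell, the fifth being Slc43a1 at 39.5 FPKM in Nan/+ livers and 91.1 FPKM in wild-type livers (log2 fold change -1.21, q = 0.00244) in the authors' deposited table. Of these 5, Epb4.9 and Slc43a1 also have a row in the nascent RNA table, and both rose there in K1-ER.

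**Figure D3:**
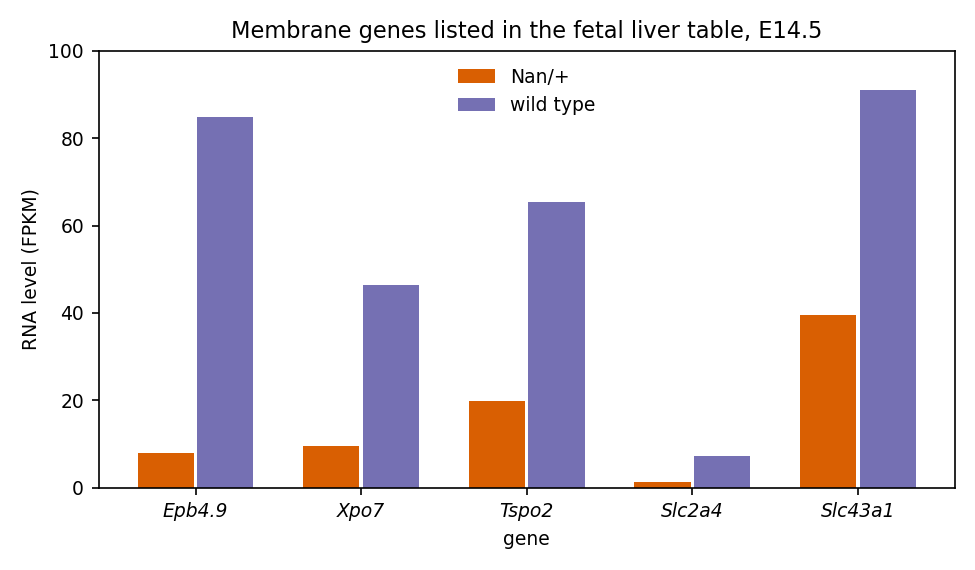
RNA levels (FPKM, bars, 1 value per group of 3 libraries) of the 5 genes of the wider list with a row in the fetal liver table, Nan/+ left and wild type right. Xpo7 among them encodes a nuclear export receptor. Each Nan/+ bar is shorter than its wild-type bar, with the widest gap at Epb4.9, 7.98 against 84.8 FPKM.

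Markers of other cell types moved with genotype in these livers. In whole liver, fewer cells of a type and less RNA per cell cannot be told apart. All 5 muscle markers fell, with a summed level of 1.67 FPKM in Nan/+ and 41.3 FPKM in wild type and none at 0 in either group, which touches Slc2a4, a transporter also made in muscle; their part in its fall was not tested. All 6 myeloid markers rose (summed level 2384 FPKM in Nan/+ and 403 FPKM in wild type), as did 2 of 4 megakaryocyte markers (635 and 250.5 FPKM) and 1 of 5 macrophage markers (16.3 and 8.06 FPKM); their part in the 4 falls was not tested. None of the 8 erythroid, 5 hepatocyte or 2 lymphoid markers has a row in the liver table. Xist, an RNA made in female cells, was listed at 0.04 FPKM in Nan/+ and 25.1 FPKM in wild type. The mix of sexes may thus differ between the groups, and then it cannot be told apart from genotype. The part of sex in the falls was not tested. In the nascent RNA table, 3 of 8 erythroid markers have a row (Alas2, Epor and Tfrc; summed level 277 FPKM in K1-NanER, 604 in K1-ER and 156 in K1), while no myeloid, macrophage or muscle marker has one. A row is also held by 1 of 4 megakaryocyte markers (Vwf, 1.99 FPKM in K1-NanER, 2.88 in K1-ER and 5.13 in K1), 1 of 5 hepatocyte markers (Dlk1, 0.65, 0.80 and 3.01 FPKM in the same order) and 1 of 2 lymphoid markers (Cd79a, 1.13 and 1.41 FPKM, and at the floor in K1). The part of these markers in the changes of the 5 genes was not tested.

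Binding was described next, from 1 pooled library per factor, with fold enrichment being the authors' ratio of ChIP over input for a peak. Of the 8 genes, 3 are named by a Nan-KLF1 peak and 6 by a KLF1 peak; Tspo2 and Slc2a4 are named by none. Among all genes with nascent RNA values 26.5% are named by a Nan-KLF1 peak and 45.8% by a KLF1 peak, among those with liver values 15.5% and 25.0%, and among the wider membrane list 38.5% (20 of 52) and 59.6% (31 of 52). Epb4.9 and Ank1 had 5 and 4 KLF1 peaks; 2.38% of the genes in the nascent RNA table had 4 or more, as did 9.09% of the other genes of the wider membrane list (4 of 44), among them Kcnn4 with 5 and Gypc with 4. Of the 13 KLF1 peaks 8 are intronic, 3 lie at a promoter and 2 are distal in the authors' annotation, against 36.6%, 29.4% and 24.0% of the whole KLF1 list.

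Epb4.9 carried the strongest KLF1 site of the 8 genes, while the strongest Nan-KLF1 site was that of Cd24a. The Epb4.9 promoter peak had a fold enrichment of 214 for Nan-KLF1 (14:71026769 to 71027136, rank 332 of 2758) and 437 for KLF1 (14:71026611 to 71027379, rank 101 of 5326), above 86.5% and 98.1% of the peaks in their own lists. The summits lay 10 bp apart over the same motif cccCTCcc, 8.91 kb inside the upper edge of the locus, and this was the 1 pair that the authors' own intersection names. The other 4 KLF1 peaks of Epb4.9 are intronic, between 2.29 and 9.07 kb from the promoter summit, with fold enrichments of 153, 137, 45.8 and 36.5. No Nan-KLF1 peak overlapped these 4.

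Ank1 had 2 Nan-KLF1 and 4 KLF1 peaks, all given as intronic. The strongest had a fold enrichment of 136 for Nan-KLF1 (8:24164546 to 24165000) and 263 for KLF1 (8:24163957 to 24164918), with 373 bp shared and summits 52 bp apart. A second pair, of 78.0 for Nan-KLF1 (8:24145216 to 24146018) and 37.8 for KLF1 (8:24145319 to 24146014), shared 696 bp with summits 302 bp apart. The peaks of this pair stood above only 18.5% and 8.07% of their own lists. The median fold enrichment was 107 over the Nan-KLF1 list and 75.6 over the KLF1 list. Values of the factors were not put on a common scale. The authors' intersection names neither pair: over both lists it holds overlapping peaks with summits at most 50 bp apart, and the nearest overlapping pair it leaves out is 51 bp apart. Neither site has a central motif in either list. The remaining KLF1 peaks of Ank1, at 54.3 and 45.4, were not overlapped by Nan-KLF1, and the first of them lies 47.1 kb outside the locus of the expression table.

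**Figure D4:**
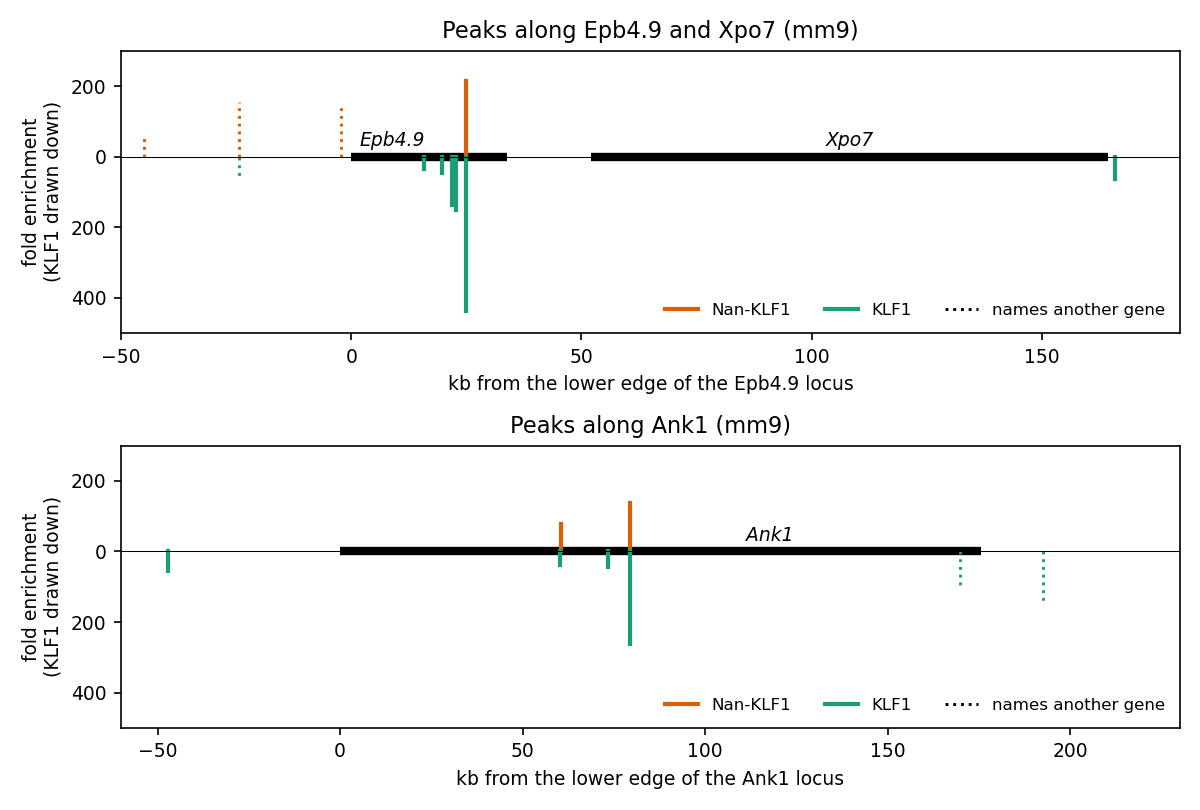
Peak summits along Epb4.9 with its neighbour Xpo7 (top) and along Ank1 (bottom), in kb from the lower edge of the first locus (black bars are loci); line length is the authors' fold enrichment, Nan-KLF1 up and KLF1 down, and dotted lines name another gene. At Epb4.9 both factors meet at 1 site (214 and 437), with 4 further KLF1 lines beside it, and at Ank1 they meet at 2 sites.

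The other genes had single peaks. Add2 had no Nan-KLF1 peak and 1 KLF1 peak (6:86027687 to 86028273, fold enrichment 137), annotated as promoter although its summit lies 49.3 kb inside the lower edge of the locus. Ermap had no Nan-KLF1 peak and 1 KLF1 promoter peak (4:118862309 to 118862973, fold enrichment 43.7), whose summit lies 38 bp beyond the upper edge of the locus. Both genes rose in K1-NanER, and the Nan-KLF1 list holds no peak for either. Cd24a had a distal peak of each factor at different places: that of Nan-KLF1 (10:43282021 to 43283047, fold enrichment 229, above 89.3% of its list) lay 16.5 kb from the locus, and that of KLF1 (10:43294097 to 43294563, fold enrichment 104) lay 4.62 kb from it. Xpo7 had 1 distal KLF1 peak 1.53 kb beyond its upper edge (14:71167781 to 71168144, fold enrichment 64.1) and none of Nan-KLF1. By an overlap of at least 1 bp, 3 of the 4 Nan-KLF1 peaks met a KLF1 peak and 3 of the 13 KLF1 peaks met a Nan-KLF1 peak, against 44.8% of the Nan-KLF1 list and 22.8% of the KLF1 list.

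Promoter sequences were at hand for 3 of the 8 genes, from RefSeq on build GRCm38.p6, and are shown because Add2 and Ermap rose together in both lines and carry KLF1 promoter peaks, while Tspo2 fell in Nan/+ livers without a peak. Each line gives the 250 bases before the annotated start on the gene's strand, at chr6:86028431-86028680 (+) for Add2, chr4:119189996-119190245 (-) for Ermap and chr17:48451502-48451751 (-) for Tspo2. Capitals mark matches, on either strand, to CCNCNCCC or to CCNNNCCC, which leaves the first base of the middle triplet free and contains every match to CCNCNCCC.
Add2: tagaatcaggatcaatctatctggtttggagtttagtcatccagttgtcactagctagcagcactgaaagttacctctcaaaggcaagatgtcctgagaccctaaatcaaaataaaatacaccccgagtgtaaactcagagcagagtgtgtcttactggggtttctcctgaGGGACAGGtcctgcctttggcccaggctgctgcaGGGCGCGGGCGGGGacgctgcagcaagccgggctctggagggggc
Ermap: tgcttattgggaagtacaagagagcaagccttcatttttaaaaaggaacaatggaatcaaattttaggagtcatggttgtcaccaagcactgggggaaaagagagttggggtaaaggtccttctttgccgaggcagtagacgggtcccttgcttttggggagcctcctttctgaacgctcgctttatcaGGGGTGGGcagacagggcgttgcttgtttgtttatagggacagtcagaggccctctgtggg
Tspo2: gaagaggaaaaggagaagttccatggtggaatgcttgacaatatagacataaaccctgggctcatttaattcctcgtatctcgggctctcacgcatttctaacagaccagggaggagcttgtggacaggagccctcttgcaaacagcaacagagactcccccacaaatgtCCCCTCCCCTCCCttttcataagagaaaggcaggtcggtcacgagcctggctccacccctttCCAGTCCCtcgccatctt

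Add2 held CCNCNCCC at -45 to -38 and at -39 to -32 on the opposite strand, counted from the base before the start as -1. Tspo2 held it at -80 to -73 and at -75 to -68, each as CCCCTCCC, the motif under the shared Epb4.9 summit. Ermap held no CCNCNCCC and 1 match to CCNNNCCC, at -61 to -54, which reads GGGGTGGG on the gene's strand. In all, 45.9% of 32851 promoter windows of this length held CCNCNCCC and 66.5% held CCNNNCCC, so that a match is common. The GATA element AGATAA, held by 9.99% of the windows, was in none of the 3. Positions on GRCm38.p6 and mm9 cannot be set side by side. Add2 lies on the + strand, so a start at the lower edge of its mm9 locus would put the window outside that locus. The summit of its KLF1 peak lies 49.3 kb inside the same edge. Whether the annotated start is at that edge was not tested, and the Add2 matches are not shown to lie under the KLF1 peak.

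The genes of the nascent RNA table whose pair of log2 fold changes lay nearest to each gene, among 1556, were listed over these 2 comparisons only, which share the K1 libraries. They were Phlda2 and N4bp3 for Epb4.9 (distances 0.38 and 0.46 on the log2 scale, each at the floor in K1), Tob1 and 1110008P14Rik for Add2 (0.10 and 0.12), Rpl18 and Gltscr2 for Ank1 (0.049 and 0.050), 1600002H07Rik and Brsk2 for Ermap (0.054 and 0.099), and Sertad2 and Rcn3 for Cd24a (0.15 and 0.16). Over all 3 comparisons, among the 102 genes in both tables, Clcn2 and Cercam were nearest to Epb4.9, at distances of 2.32 and 3.21. Clcn2 had log2 fold changes of 4.25 in K1-NanER, 5.49 in K1-ER and -1.47 in Nan/+ liver in the authors' deposited table.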

How the data were processed

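The deposited files are 2 expression tables and 2 annotated peak lists. Per the submitters' processing notes the tools were TopHat2 2.0.10 and MACS 1.4.2 and the build was mm9; the program behind levels and tests is not given in the sources used here. Levels are the authors' FPKM, 1 per group; the log2 fold change and the p-value and q-value are the authors' comparisons. The fold enrichment is the authors' ratio per peak, and the rank is the authors' score within a list. With 1 value per group no model was fitted, no test was run here, and the lines were not tested against each other. Many genes share the lowest deposited p-value, 5e-05 (451 in K1-NanER, 373 in K1-ER and 284 in liver), so their q cannot rank them. Recomputing the log2 fold change from the deposited FPKM gave the same value within 3.55e-09 (4sU) and, for the 4 liver genes, 0.00251.

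Locus starts are printed 1 higher than deposited, because 429 loci match their RefSeq length as end minus start and 39 are 1 short; peak positions are as deposited. Peaks were assigned by the authors' nearest gene (within 300 kb) and compared between lists by an overlap of at least 1 bp. Distances of peaks outside a locus run from the summit to its nearest edge, and those of peaks inside a locus from the edge named in the text. Calculations used Python 3.11.15 and pandas 2.3.3; overlap and motif functions were checked on made-up input.

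The 8 genes and all lists were chosen with earlier results of these data known. The genes named were the 8, the called genes of the wider list and the nearest genes by log2 fold change. The labels do not say that the K1 libraries, or the livers of 1 genotype, come from separate cultures or animals, so the authors' p-values may measure technical spread. Peak sequences would need the mm9 genome and were not used here. The alternatives tried were a stricter q, pseudocounts, a higher fold enrichment, other overlaps and peaks by distance.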

Additional observations from a re-analysis of the deposited data

How the results depend on the processing

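The log2(FPKM + 1) and log2(FPKM + 0.1) scales add the same amount to both levels of a gene. The 14 log2 fold changes of the 8 genes could therefore not change sign, only size. Of 47 alternatives 28 were of this kind and test nothing. Among the others, 3 moved a count beyond the limit set for it. That limit was wide, since changes from 12 to 8 calls and from 3 to 2 shared peaks lay within it. At a q of at most 0.01 the wider list had 4 calls in K1-NanER in place of 7 (Abcb6, Bsg and Ermap were lost) and 8 in K1-ER in place of 12. With a fold enrichment of at least 50, 4 of 4 Nan-KLF1 peaks and 8 of 13 KLF1 peaks were left. The authors' own intersection gave 1 shared KLF1 peak in place of 3, and centres within 200 bp gave 2. Peaks within 10 kb of a locus again numbered 4 and 13, of which 3 and 12 were those of the authors' naming. No FDR column is in the lists, so that alternative was not run. No paired analysis was possible because the tables hold 1 value per group, and for the same reason no replicate could be left out. Depth and the number of genes tested are unknown, so a missing row shows no lack of change.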

Other observations

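Some peaks close to the 8 genes name another gene. Inside the Ank1 locus, 5.84 kb from its upper edge, a KLF1 peak with a fold enrichment of 95.4 and the central motif ccaCACcc names the microRNA gene Mir3107, and no Nan-KLF1 peak overlaps it. A further KLF1 peak, of 152, lies 17.0 kb beyond that edge and names Nkx6-3. On the other side of Epb4.9, 2.19 kb from its lower edge, a Nan-KLF1 peak of 146 over cccAGCcc names Fam160b2 and meets no KLF1 peak.

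The strongest sites near Cd24a name F830002L21Rik: 25.9 kb from the Cd24a locus lay a Nan-KLF1 peak of 380 (rank 69 of 2758) and a KLF1 peak of 217 (rank 489 of 5326), both over cccTGCcc with summits 65 bp apart. For Slc2a4 the nearest peak of either list lay 41.2 kb away. No peak of either list lay within 50 kb of Tspo2.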
